A study of Homo sapiens with 6 samples.

Results

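The replication-dependent histone genes were followed across poly(A) RNA libraries of KYSE70 cells, a human line established from a squamous carcinoma of the esophagus. They were chosen by name alone, as rows named HIST1 to HIST4 with an H1, H2A, H2B, H3 or H4 suffix, without the 12 rows whose names end as pseudogenes. This gave 69 genes of 48644 rows, made up of 6 H1, 14 H2A, 22 H2B, 12 H3 and 15 H4 genes. By cluster, 53 were HIST1, 11 HIST2, 4 HIST3 and 1 HIST4 genes. The study used KYSE70 cells with a stably integrated doxycycline-inducible pLKO hairpin against TP63 or against SOX2, both transcription factors of squamous epithelium. They are called 2 lines here. The 6 libraries were shTP63 after 4 days of doxycycline at 50 ng/ml (2 libraries), untreated shTP63 at day 0 (1 library), shSOX2 after the same treatment (2 libraries) and untreated shSOX2 at day 0 (1 library). Sample titles number the libraries 1 or 2, and both day 0 libraries carry number 2. These numbers were read as replicates but could name hairpins. In that case induced replicate 1 has no day 0 library of its own hairpin. The question of the design is which genes differ when either factor is suppressed. All libraries come from this 1 cell line, no non-targeting hairpin is among them, and doxycycline is given in both day 4 groups and in no day 0 group, so hairpin and drug cannot be told apart within a line. Whether cultures were separate is not stated in the labels, so p-values measure only how these samples vary, and that variation could be technical.

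Replication-dependent histone genes supply the bulk of nucleosomal protein while DNA is copied. H2A, H2B, H3 and H4 form the core around which DNA is wrapped, and H1 binds the linker DNA between cores. Their mRNAs end in a short stem-loop in place of a poly(A) tail, and the stem-loop binding protein, encoded by SLBP, attaches there and carries the mRNA through processing, translation and decay. Their transcription is raised in S phase by NPAT, a coactivator driven by cyclin E and CDK2. Some of the genes can also make polyadenylated mRNA, mainly in cells that have left the cycle. The libraries were made by oligo(dT) selection, so the values are of histone RNA that was held on oligo(dT), whether tailed or carried over, and not of total histone mRNA. In bulk RNA, fewer cells in S phase and less histone RNA per cell cannot be told apart.

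Values are on the log2(RPKM + 1) scale unless called linear, with base 2 assumed, and the authors' normalization has given all libraries the same highest value of 13.36. Depth cannot be read off such values and is unknown. The untreated shTP63 library stood apart, with 16167 genes above 0 against 21530 to 23509 in the other 5, and with 56 tested genes at 0 against 0 to 5. Its smallest value above 0 was 0.143, against at most 0.015 in the other 5. As the sole day 0 library of that line, it underlies every statement on shTP63 induction and on the day 0 gap. TP63 was at 2.11 and 2.26 in induced shTP63 cells, against 3.99 at day 0, and SOX2 was at 4.67 and 5.65 in induced shSOX2 cells, against 6.25 at day 0. Of 10 squamous and basal markers, 0 were listed at 0 in any library. Among 6 leukocyte markers CD3E was at 0 in all 6 libraries and PTPRC did not exceed 0.04, while CD68, which alone passed the filter on low values, was at 0.65 and 0.96 in induced shTP63 cells, against 2.88 at day 0, and at 1.27 and 1.33 in induced shSOX2 cells, against 1.91 at day 0. The summed linear RPKM of the leukocyte list was 0.683 and 0.981 in induced shTP63 cells, against 6.34 at day 0, and 1.80 and 1.59 in induced shSOX2 cells, against 2.78 at day 0. Among 6 fibroblast markers COL1A2 was at 0 in all 6 libraries, PDGFRB, DCN and LUM did not exceed 0.03, and COL3A1 was at 5.79 and 6.47 in induced shTP63 cells, against 2.13 at day 0, and at 7.29 and 4.78 in induced shSOX2 cells, against 3.24 at day 0. The summed linear RPKM of the fibroblast list was 58.7 and 93.0 in induced shTP63 cells, against 5.27 at day 0, and 157.7 and 29.6 in induced shSOX2 cells, against 10.3 at day 0. The part of these lists in the results was not tested.

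The element that sets these mRNAs apart is the histone stem-loop, shown here as it is read from GENCODE release 29 transcripts on GRCh38, with the loop in capitals. It was found in the transcript models of 33 of the 69 genes, in 6 versions, and in 44 of 58721 GENCODE genes in all, which is 0.0749%. The models of the other 36 genes hold none, and many of those models stop at the coding sequence, so their lack of a match says nothing about the mRNA. 1 gene is given for each version.
HIST2H2AA4 (chr1:149851574-149851589, plus strand; version of 16 genes): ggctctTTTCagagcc
HIST1H4J (chr6:27824459-27824474, plus strand; version of 5 genes): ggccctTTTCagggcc
HIST1H2BD (chr6:26158587-26158602, plus strand; version of 5 genes): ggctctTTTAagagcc
HIST2H4A (chr1:149833032-149833047, plus strand; version of 3 genes): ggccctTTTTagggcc
HIST2H2BC (chr1:149850302-149850317, minus strand; version of 3 genes): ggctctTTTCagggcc
HIST1H3E (chr6:26225596-26225611, plus strand; version of 1 gene): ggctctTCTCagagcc
The first version was found in H2A, H2B and H3 genes, the second and the fourth in H4 genes, and the fifth in HIST2H2BC, HIST2H2BD and HIST1H2AG.

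The promoters of a neighbouring H2B pair, HIST1H2BJ and HIST1H2BK, are shown because the genes are much alike upstream and differed in how their levels moved. They are the 250 bases before the start in RefSeq on GRCh38.p14, minus strand, at chr6:27132796-27133045 for HIST1H2BJ and chr6:27146859-27147108 for HIST1H2BK. Capitals mark matches on either strand, which may overlap, to TATAAA (the TATA box), to CCAAT (the CCAAT box) and to ATTTGCA (the first letters of the octamer motif of OCT1).
HIST1H2BJ: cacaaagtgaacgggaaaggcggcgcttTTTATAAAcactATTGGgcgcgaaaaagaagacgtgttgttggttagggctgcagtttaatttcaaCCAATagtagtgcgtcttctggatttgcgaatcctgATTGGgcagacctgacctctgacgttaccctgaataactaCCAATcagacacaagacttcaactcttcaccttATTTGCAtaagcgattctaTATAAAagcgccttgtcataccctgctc
HIST1H2BK: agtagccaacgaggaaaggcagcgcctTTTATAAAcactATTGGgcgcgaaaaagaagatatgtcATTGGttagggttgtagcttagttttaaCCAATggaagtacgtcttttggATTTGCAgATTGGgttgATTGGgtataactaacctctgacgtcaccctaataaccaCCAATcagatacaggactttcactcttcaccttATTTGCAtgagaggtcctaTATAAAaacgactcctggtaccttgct
In a global alignment of 254 columns 202 bases, or 79.5%, were identical. The HIST1H2BJ promoter held 3 matches to TATAAA, 4 to CCAAT and 1 to ATTTGCA, and that of HIST1H2BK 3, 6 and 2. The TATAAA nearest the start ended 22 bases before it in HIST1H2BJ and 21 bases before it in HIST1H2BK.

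Over the 60 genes with a promoter entry, these letters were spread unevenly by type. CCAAT was found in every one of the 6 H1, 13 H2A, 18 H2B and 10 H3 promoters and in 3 of 13 H4 promoters, against 33.0% of all 27305 promoters. TATAAA was found in 50.0% of H1, 76.9% of H2A, 77.8% of H2B, 70.0% of H3 and 53.8% of H4 promoters, against 11.1% of all. ATTTGCA was found in 61.5% of H2A, 55.6% of H2B and 10.0% of H3 promoters and in 0 of the H1 and H4 promoters, against 3.7% of all. By GENCODE, 12 pairs of the 69 genes stand head to head with starts 124 to 357 bases apart, 11 of them an H2A with an H2B gene. The windows of such a pair overlap, so 1 match can be counted for both genes. The shares of H2A and H2B promoters are therefore not independent. A match describes these letters in this window and is no evidence of binding.

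Of the 69 genes, 54 passed the filter of a mean linear RPKM of at least 1, namely 4 H1, 13 H2A, 18 H2B, 9 H3 and 10 H4 genes. Another 6 were at 0 in every library (HIST1H2BA, HIST2H2BA, HIST1H3I, HIST1H4G, HIST1H4L and HIST4H4), and 9 were above 0 in at least 1 library but under the filter. The highest of these 9 was HIST3H2BA, a pseudogene in GENCODE, with 0.33 and 0.61 in induced shTP63 cells, against 1.66 at day 0. The testis H1 gene HIST1H1T was at 0.20 and 0.10 in induced shTP63 cells, against 1.03 at day 0, and at 0.11 and 0.05 in induced shSOX2 cells, against 0 at day 0. None of the 4 testis histone genes passed the filter.

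Per length, the most abundant histone RNA of the 6 libraries was HIST1H2BK, an H2B gene, with a mean level of 5.78 and a mean linear RPKM of 57.0. HIST1H1C, which encodes linker histone H1.2, followed at a mean level of 5.42, then HIST1H1E, which encodes H1.4, at 4.99 and the H4 gene HIST1H4C at 4.95. The highest H2A gene was HIST2H2AA4 at 4.36 and the highest H3 gene HIST1H3B at 4.05. These levels overlapped between libraries, since HIST1H2BK ranged over 5.04 to 6.32 and HIST1H4C over 4.07 to 6.43, so the order of neighbours is not fixed. Many histone paralogs are near-identical in their coding sequence, as are the duplicated pairs HIST2H2AA3 and HIST2H2AA4, and HIST2H4A and HIST2H4B. The sources used here do not say how reads shared by copies were counted, so single paralogs are uncertain and are read beside their type.

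**Figure D1:**
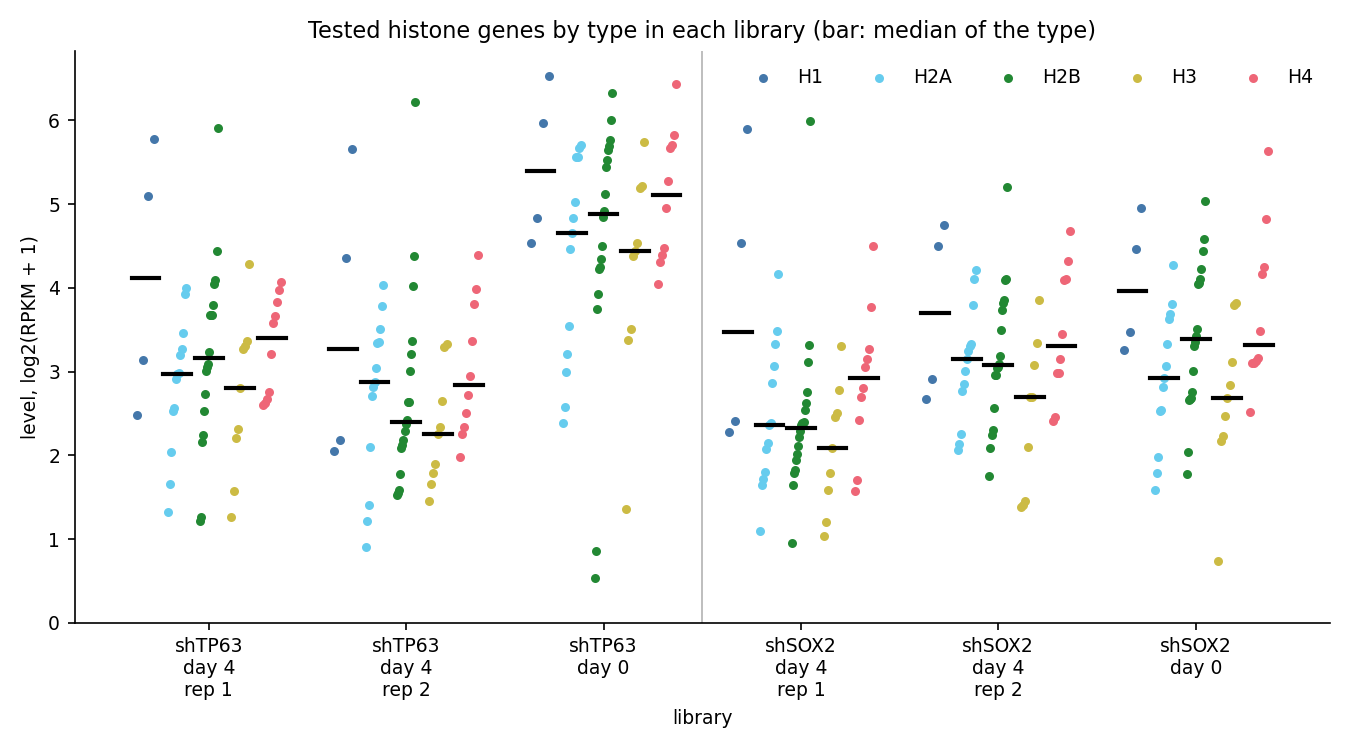
Level of each of the 54 tested histone genes, in log2(RPKM + 1), in the 6 libraries, coloured by type, with a bar at the median of each type. The day 0 shTP63 library has the highest median for every type, and the other 5 libraries overlap one another.

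With induction of the TP63 hairpin, histone RNA of every type was lower than in the day 0 library of the same line. The median level of the 54 genes was 3.12 and 2.64 in the induced libraries, against 4.83 at day 0, and the median of their log2 changes was -1.94, against 0.00 over all 10536 genes tested. Both induced libraries were below day 0 for 49 of the 54 genes, a pattern met by 38.5% of all genes tested. By at least 2-fold in both libraries, 44 were lower and 0 higher, against 2.82% and 3.05% of all genes tested. After adjustment over all genes 0 of 54 passed in limma, where 0.019% of all genes did, and 48 had an unadjusted p under 0.05, 47 of them lower, a direction and threshold met by 7.24% of all genes tested, and 1 higher, as 7.33% were. The median change was -1.99 for H1, -1.65 for H2A, -1.79 for H2B, -1.94 for H3 and -1.96 for H4, and the ranges of the types overlapped.

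**Figure D2:**
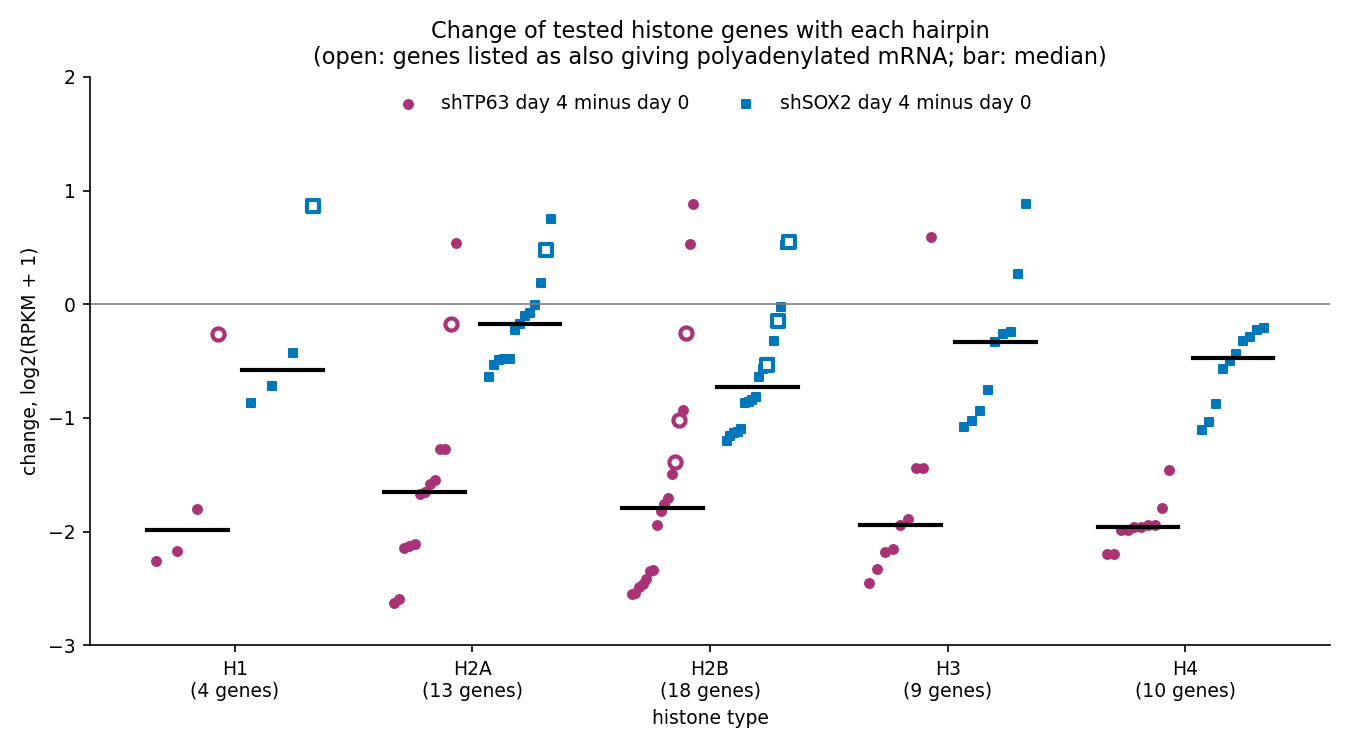
Change in log2(RPKM + 1) of each tested histone gene by type, day 4 minus day 0, in the shTP63 line (circles, left in each pair) and the shSOX2 line (squares), with bars at the medians and open symbols for the 5 genes listed as also giving polyadenylated mRNA. In the shTP63 line 50 of 54 genes lie below 0, with medians of -1.65 to -1.99, and in the shSOX2 line 46 lie below 0, with medians of -0.17 to -0.73.

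The linker histone genes divided into 3 that were far lower after TP63 hairpin induction and 1 that was not. HIST1H1E was at 5.10 and 4.35 in induced shTP63 cells, against 6.53 at day 0, a log2 change of -1.80 ± 0.41, where the error is limma's SE over 2 day 4 libraries and 1 day 0 library (limma adjusted p = 0.143). HIST1H1B, which encodes H1.5, was at 3.14 and 2.18 in induced shTP63 cells, against 4.83 at day 0. HIST1H1D, which encodes H1.3, was at 2.48 and 2.05 in induced shTP63 cells, against 4.53 at day 0. HIST1H1C was at 5.78 and 5.66 in induced shTP63 cells, against 5.97 at day 0, a log2 change of -0.26 ± 0.49 (limma adjusted p = 0.851). The induced libraries lay below day 0 for all 4 genes, and for HIST1H1C by less than the standard error.

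Among H2A genes the 4 largest differences were those of HIST1H2AJ, HIST1H2AL, HIST1H2AH and HIST1H2AI. HIST1H2AJ was at 3.27 and 2.88 in induced shTP63 cells, against 5.70 at day 0, a log2 change of -2.63 ± 0.45 (limma adjusted p = 0.126). HIST1H2AL was at 3.46 and 2.71 in induced shTP63 cells, against 5.67 at day 0, and HIST1H2AI at 2.98 and 2.82, against 5.03. HIST1H2AB was at 1.66 and 1.21 in induced shTP63 cells, against 3.54 at day 0, and HIST1H2AE at 4.00 and 3.78, against 5.56. HIST2H2AA4, the H2A gene of highest level, was at 3.93 and 4.03 in induced shTP63 cells, against 5.56 at day 0, a log2 change of -1.58 ± 0.33 (limma adjusted p = 0.137). The exceptions were HIST1H2AC, at 2.57 and 3.51 in induced shTP63 cells, against 3.21 at day 0, and HIST3H2A, at 2.91 and 3.34, against 2.58. In HIST1H2AC the induced libraries lay on either side of day 0, and in HIST3H2A both lay above it.

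Changes of H2B genes ranged over -2.55 to 0.88 for 18 genes, and over -2.55 to -0.25 without the 2 that are pseudogenes in GENCODE, HIST2H2BC and HIST2H2BD. HIST1H2BE was at 4.09 and 3.21 in induced shTP63 cells, against 6.00 at day 0, a log2 change of -2.35 ± 0.53 (limma adjusted p = 0.142). HIST1H2BC was at 3.80 and 4.02 in induced shTP63 cells, against 4.85 at day 0, and HIST1H2BD at 4.44 and 4.38, against 5.44. HIST1H2BK was at 5.91 and 6.22 in induced shTP63 cells, against 6.32 at day 0, a log2 change of -0.25 ± 0.42 (limma adjusted p = 0.832). HIST1H2BJ, whose promoter is shown beside that of HIST1H2BK, was at 2.73 and 1.78 in induced shTP63 cells, against 3.75 at day 0, a log2 change of -1.49 ± 0.43 (limma adjusted p = 0.196). Both genes lay below day 0 in both induced libraries, with single-library differences of -0.41 and -0.09 for HIST1H2BK and -1.01 and -1.97 for HIST1H2BJ, and the difference between the genes was not tested.

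The H3 genes carried the smallest unadjusted p of the family. HIST2H3D was at 1.26 and 1.46 in induced shTP63 cells, against 3.51 at day 0, a log2 change of -2.15 ± 0.30 (limma adjusted p = 0.113), lower in 2 of 2 libraries. HIST1H3B was at 4.28 and 3.33 in induced shTP63 cells, against 5.74 at day 0, and HIST1H3F at 3.27 and 2.26, against 5.21. HIST1H3D was at 3.30 and 3.29 in induced shTP63 cells, against 5.19 at day 0, HIST1H3A at 2.21 and 1.66, against 3.38, and HIST1H3G at 2.80 and 1.90, against 4.53. HIST1H3E stood against the other 8 H3 genes, at 1.57 and 2.34 in induced shTP63 cells, against 1.36 at day 0.

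H4 genes were the most uniform, with changes of -1.46 to -2.20. All 10 were lower by at least 2-fold in both induced libraries, as 2.82% of all genes tested were. HIST1H4C was at 4.07 and 4.39 in induced shTP63 cells, against 6.43 at day 0, a log2 change of -2.20 ± 0.35 (limma adjusted p = 0.116). HIST1H4H was at 3.83 and 3.99 in induced shTP63 cells, against 5.70 at day 0, and HIST1H4E at 3.97 and 3.81, against 5.83. HIST2H4B was at 2.62 and 2.34 in induced shTP63 cells, against 4.47 at day 0, and its near-identical copy HIST2H4A at 2.60 and 2.26, against 4.39. The H4 genes HIST1H4A, HIST1H4J and HIST1H4K were at 2.67 and 2.51, 3.66 and 2.95, and 3.21 and 2.72 in induced shTP63 cells, against 4.05, 5.27 and 4.95 at day 0.

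The size of these differences depended on the day 0 library they were measured from. In an alternative chosen after seeing the data, the induced shTP63 libraries were set against the day 0 library of the shSOX2 line, and the median change was -0.39. Against that library 1 gene, HIST1H4C, was 2-fold lower in both and 1, HIST1H1C, 2-fold higher, as 3.76% and 3.88% of all genes tested were, in place of 44 lower and 0 higher. Both induced shTP63 libraries were below the shSOX2 day 0 library for 33 of 54 genes, a pattern met by 39.3% of all genes tested. With both day 0 libraries together as control the median was -1.10, and 22 genes were 2-fold lower in both and 0 higher, against 2.41% and 2.69% of all. HIST1H4C alone of the 54 then passed, with a log2 change of -1.80 (limma adjusted p = 0.0303), where 1.21% of all genes passed as lower. Without the induced shTP63 replicate 1, 12 histone genes passed in limma, all lower, as 0.228% of all genes did, and without replicate 2, 2 passed, both lower, as 0.266% of all did. The smallest adjusted p ranged over 0.0303 to 0.226 in 15 alternatives.

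With induction of the SOX2 hairpin, the median histone gene was lower by less than in the shTP63 line when each line was set against its own day 0 library, and by more when both were set against the 2 day 0 libraries together, with medians of -1.10 for shTP63 and -1.27 for shSOX2. Against its own day 0 library, the median level of the 54 genes was 2.39 and 3.07 in the induced libraries, against 3.21 at day 0, and the median log2 change was -0.49, against -0.05 over all genes tested. Both induced libraries were below day 0 for 36 genes, a pattern met by 40.2% of all genes tested, and above it for 7, against 33.3%. At least 2-fold in both libraries, 0 genes were lower and 0 higher, against 0.987% and 2.48% of all genes tested. In limma 0 of 54 passed after adjustment, as for all genes (0%), and at an unadjusted p under 0.05, 5 were lower and 0 higher, against 4.26% and 6.12% of all genes tested. The medians by type were -0.58 for H1, -0.17 for H2A, -0.73 for H2B, -0.33 for H3 and -0.47 for H4. They rested on the library used: without replicate 1 they were -0.50, 0.04, -0.30, -0.14 and -0.13 in the same order of types, and without replicate 2 they were -0.63, -0.56, -1.27, -0.62 and -0.96. With both day 0 libraries as control they lay between -1.04 and -1.40. Under that control 21 genes were 2-fold lower in both induced libraries and 1, HIST2H2BC, 2-fold higher, against 1.33% and 2.96% of all genes tested. Against the shTP63 day 0 library alone, an alternative chosen after seeing the data, 44 were lower and 1, again HIST2H2BC, higher, against 3.06% and 5.28%.

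Much of the spread in this line lay between its induced libraries. Replicate 1 was below replicate 2 for 43 of 54 genes, which held for 46.1% of all genes tested, and the medians of the single-library changes were -0.81 for replicate 1 and -0.15 for replicate 2. Without replicate 2, 21 genes were 2-fold lower and 2, HIST1H1C and HIST1H3E, 2-fold higher, in place of 0 and 0, where 2.83% and 4.27% of all genes were. By contrast the induced shTP63 replicate 1 was below replicate 2 for 14 of 54 genes, which held for 50.6% of all.

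The 5 histone genes that were lower at an unadjusted p under 0.05 in the shSOX2 line were 3 H4 and 2 H3 genes. HIST1H4C was at 4.50 and 4.68 in induced shSOX2 cells, against 5.63 at day 0, a log2 change of -1.04 ± 0.35 (limma adjusted p = 0.431). HIST1H4A was at 1.70 and 2.41 in induced shSOX2 cells, against 3.16 at day 0, a log2 change of -1.11 ± 0.39 (limma adjusted p = 0.431). HIST1H4H was at 3.77 and 4.11 in induced shSOX2 cells, against 4.82 at day 0, and HIST2H3D at 1.58 and 1.38, against 2.23. HIST1H3A was at 1.04 and 1.41 in induced shSOX2 cells, against 2.17 at day 0. In these 5 genes both induced libraries lay below day 0.

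The response in the shTP63 line minus that in the shSOX2 line had a median of -1.35 over the 54 genes, against 0.03 over all genes tested. In limma this difference of responses passed for 0 of 54 genes, as for all genes (0%), and at an unadjusted p under 0.05, 21 were lower and 0 higher, against 2.47% and 2.08% of all. It was largest in HIST1H3G, at -2.45 ± 0.59 (limma adjusted p = 0.995), which was at 2.78 and 2.70 in induced shSOX2 cells, against 2.47 at day 0. With HIST1H1C and HIST1H2BK this made 3 genes that were lower in both induced shTP63 libraries and higher in both induced shSOX2 libraries, a pattern met by 6.16% of all genes tested. Their differences of responses were -1.12 ± 0.69 and -0.80 ± 0.60 (limma adjusted p = 0.995 for each). For HIST2H4B and HIST1H2AI the difference was -1.78 ± 0.47 and -1.96 ± 0.57 (limma adjusted p = 0.995 for each).

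Set directly against each other, the induced lines had close medians of histone RNA. The median difference, induced shTP63 minus induced shSOX2, was 0.13, against 0.05 over all genes tested, and it lay between -0.21 and 0.45 in 13 alternatives. In limma 0 of 54 passed, where 0.759% of all genes did, and at an unadjusted p under 0.05, 3 were higher and 1 lower, against 10.5% and 12.5% of all genes tested. Both induced shTP63 libraries were above both induced shSOX2 libraries for 4 genes and below them for 6, against 30.5% and 26.6% of all genes tested. HIST1H2BC was at 3.80 and 4.02 in induced shTP63 cells, against 2.54 and 3.06 in induced shSOX2 cells, a difference of 1.11 ± 0.30 (limma adjusted p = 0.112). HIST1H2BD was at 4.44 and 4.38 in induced shTP63 cells, against 3.32 and 3.74 in induced shSOX2 cells, and HIST1H3A at 2.21 and 1.66, against 1.04 and 1.41. The fourth, HIST2H2BC, was at 1.26 and 1.55 in induced shTP63 cells, against 2.36 and 2.24 in induced shSOX2 cells.

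Over both lines, day 4 minus day 0 had a median of -1.18, against -0.02 over all genes tested. All 4 induced libraries were below both day 0 libraries for 27 of 54 genes, a pattern met by 14.2% of all genes tested, and above both for 2, against 11.5%. The 27 comprised 2 H1, 6 H2A, 10 H2B, 3 H3 and 6 H4 genes. In limma 0 of 54 passed, where 0.0569% of all genes did, and 48 had an unadjusted p under 0.05, 45 of them lower and 3 higher, against 10.1% and 10.4% of all. HIST2H3D and HIST1H4C came nearest, with log2 changes of -1.45 ± 0.21 and -1.62 ± 0.25 (limma adjusted p = 0.0586 for each). With a pseudocount of 0.1 these 2 genes passed, both lower, where 0.18% of all genes passed as lower. Fits without 1 of the induced shTP63 libraries leave no pair in that line, so their calls are not given. Without the day 0 shTP63 library, an alternative chosen after seeing the data, the median over both lines was -0.37.

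Before induction, histone RNA of every type was higher in the shTP63 library than in the shSOX2 library. The median level was 4.83 in the shTP63 day 0 library, against 3.21 in the shSOX2 day 0 library, and the median gap was 1.49, against 0.01 over all genes tested. The shTP63 library was higher for 52 of 54 genes, where it was for 50.9% of all genes tested. By at least 2-fold it was higher for 45 and lower for 2, against 1.98% and 2.64% of all genes tested. For 49 of 54 genes it was the highest of all 6 libraries, which held for 19.0% of all. In limma 0 passed, as for all genes (0%), and 40 had an unadjusted p under 0.05, 38 of them higher and 2 lower, against 1.81% and 2.93% of all. The median gap was 1.54 for H1, 1.29 for H2A, 1.49 for H2B, 1.60 for H3 and 1.40 for H4. This comparison shares the shTP63 day 0 library with the induction comparison, so they are not independent.

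**Figure D3:**
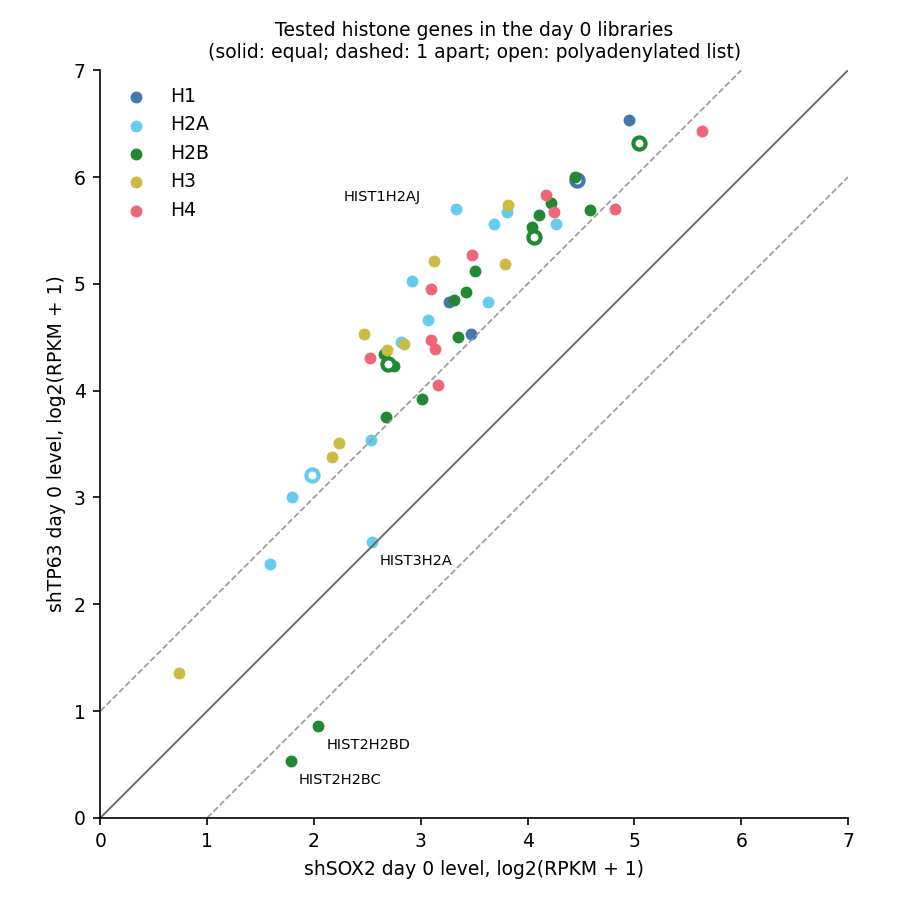
Level of each tested histone gene in the untreated shTP63 library (vertical axis) against the untreated shSOX2 library (horizontal axis), in log2(RPKM + 1), coloured by type. Most points lie above the upper dashed line, 1 unit over equality, while HIST3H2A lies near equality and HIST2H2BC and HIST2H2BD lie below the lower dashed line.

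The gaps were largest in HIST1H2AJ, HIST1H2AI, HIST1H3F, HIST1H3G and HIST1H3B. HIST1H2AJ was at 5.70 in the shTP63 day 0 library, against 3.33 in the shSOX2 day 0 library, a gap of 2.37 ± 0.52 (limma adjusted p = 0.482). HIST1H2AI and HIST1H3F were at 5.03 and 5.21 in the shTP63 day 0 library, against 2.92 and 3.12 in the shSOX2 day 0 library. HIST1H3G and HIST1H3B were at 4.53 and 5.74 in the shTP63 day 0 library, against 2.47 and 3.82 in the shSOX2 day 0 library. The H4 genes HIST1H4K and HIST1H4J were at 4.95 and 5.27 in the shTP63 day 0 library, against 3.10 and 3.48 in the shSOX2 day 0 library. HIST1H4C and HIST1H4H had narrower gaps, with 6.43 and 5.70 in the shTP63 day 0 library, against 5.63 and 4.82 in the shSOX2 day 0 library. Of 11 tested structural RNAs without a poly(A) tail, 7 were higher in the shTP63 day 0 library and 4 lower. Over all genes tested 50.9% were higher there, so that count does not stand apart. By at least 2-fold 3 of the 11 were higher and 2 lower, against 1.98% and 2.64% of all genes tested. RN7SK, RN7SL1 and RMRP were at 13.36, 13.04 and 11.69 in the shTP63 day 0 library, against 11.16, 10.52 and 9.21 in the shSOX2 day 0 library, while SNORD3A was at 7.46, against 9.88. The median gap over the 11 tested RNAs of that list was 0.69. Between the induced lines 3 of the 11 passed in limma, where 0.759% of all genes did. RN7SK was higher in induced shTP63 cells by 1.57, and SNORD3A and SCARNA13 differed by -2.44 and -2.16. RN7SK sat at the ceiling of 13.36 in every shTP63 library, so the size of its differences from shSOX2 is not known. SNORD3A was at 7.83 in both induced shTP63 libraries. For RN7SK and SNORD3A that pair therefore showed no spread. The median histone difference between the induced lines was 0.13. The part of the structural RNAs in the histone gap was not tested.

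On the linear scale the histone RNA of the whole family can be added up. The 69 genes summed to 561.5 and 465.2 RPKM in induced shTP63 cells, against 1710.2 RPKM at day 0, a ratio of 0.3. They summed to 406.9 and 515.8 RPKM in induced shSOX2 cells, against 598.9 RPKM at day 0, a ratio of 0.77. The day 0 sums stood at a ratio of 2.86, shTP63 over shSOX2. In the shTP63 line the ratio of day 4 to day 0 was 0.235 for H4, 0.246 for H3, 0.273 for H2A, 0.333 for H2B and 0.431 for H1. In the shSOX2 line it was 0.624 for H4, 0.723 for H3, 0.729 for H2B, 0.91 for H2A and 1.07 for H1. In both lines this ratio of mean sums was lowest for H4 and highest for H1, but the rank of H1 was not stable. In induced shSOX2 cells the H1 sums were 88.8 and 59.5 RPKM, against 69.5 RPKM at day 0. The H2A sums there were 72.9 and 110.4 RPKM, against 100.7 RPKM. In the shTP63 line the median log2 change, unlike the sum, was lowest for H1, at -1.99. The H1 sum leans on HIST1H1C, whose linear RPKM averaged 45.1. H4 made up 17.1% and 18.3% of the family's sum in induced shTP63 cells, against 22.6% at day 0, and 19.3% and 22.7% in induced shSOX2 cells, against 26.2% at day 0.

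**Figure D4:**
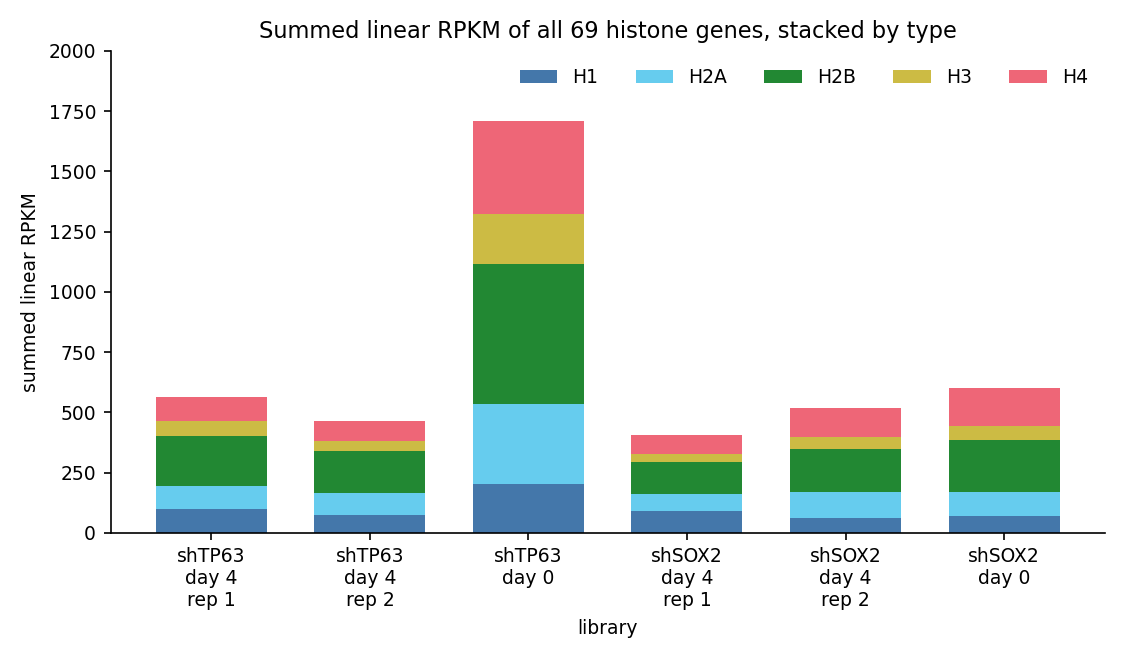
Summed linear RPKM of all 69 histone genes in each library, stacked by type. The shTP63 day 0 library reaches 1710.2 RPKM and the other 5 lie between 406.9 and 598.9 RPKM.

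The 5 histone genes listed as known also to give polyadenylated mRNA were HIST1H1C, HIST1H2AC, HIST1H2BD, HIST1H2BK and HIST2H2BE. They had a median log2 change of -0.26 in the shTP63 line and of 0.48 in the shSOX2 line, against -1.94 and -0.49 over the 54 genes. The list was chosen with earlier results of these data known, and its genes were not alike. HIST1H2BD and HIST2H2BE changed by -1.02 and -1.39 in the shTP63 line and by -0.53 and -0.15 in the shSOX2 line. HIST1H1C, HIST1H2AC and HIST1H2BK changed by -0.26, -0.17 and -0.25 in the shTP63 line and by 0.86, 0.48 and 0.55 in the shSOX2 line. Their median day 0 gap, in contrast, was 1.38, near the 1.49 of the family. All 5 were at least 2-fold higher in the shTP63 day 0 library, as 1.98% of all genes tested were. HIST1H1C was at 5.89 and 4.75 in induced shSOX2 cells, against 4.46 at day 0, and HIST1H2BK at 5.99 and 5.20, against 5.04. HIST1H2AC was at 2.15 and 2.77 in induced shSOX2 cells, against 1.98 at day 0, and HIST1H2BD at 3.32 and 3.74, against 4.06. HIST2H2BE was at 3.09 and 2.64 in induced shTP63 cells, against 4.25 at day 0, and at 2.11 and 2.96 in induced shSOX2 cells, against 2.69 at day 0. Together the 5 genes made up 26.0% and 34.1% of the family's linear sum in induced shTP63 cells, against 12.2% at day 0, and 33.6% and 16.8% in induced shSOX2 cells, against 12.9% at day 0. The other 64 genes had day 4 to day 0 ratios of 0.24 in the shTP63 line and 0.67 in the shSOX2 line. None of the 5 passed in limma in either line.

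A few genes ran against the family. HIST2H2BC was at 1.26 and 1.55 in induced shTP63 cells, against 0.53 at day 0, a log2 change of 0.88 ± 0.30 (limma adjusted p = 0.25), and at 2.36 and 2.24 in induced shSOX2 cells, against 1.78 at day 0. HIST2H2BD was at 1.21 and 1.58 in induced shTP63 cells, against 0.86 at day 0, and at 2.29 and 1.75 in induced shSOX2 cells, against 2.04 at day 0. Both are pseudogenes in GENCODE, kept here because their names do not say so, and their longest models run on for 5804 and 2976 bases past the stem-loop. They were the only 2 of the 54 that were lower in the shTP63 day 0 library than in the shSOX2 day 0 library. HIST3H2A and HIST1H3E were higher in both induced libraries of both lines, with 3.33 and 3.25 for HIST3H2A in induced shSOX2 cells, against 2.54 at day 0, and 1.79 and 1.45 for HIST1H3E, against 0.74. None of these 4 genes passed in limma in either line.

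Across the 6 libraries the histone genes moved together. The mean of the 54 genes was 3.12 and 2.77 in induced shTP63 cells, against 4.60 at day 0, and 2.58 and 3.13 in induced shSOX2 cells, against 3.28 at day 0. The Pearson correlation of a gene with that mean had a median of 0.946, and 41 of 54 were at 0.9 or above. The 7 genes under 0.5 were HIST2H2BC (-0.814), HIST2H2BD (-0.749), HIST3H2A (-0.746), HIST1H3E (-0.428), HIST1H1C (0.14), HIST1H2BK (0.212) and HIST1H2AC (0.315). These correlations describe 6 libraries that share 1 normalization, span the high shTP63 day 0 library, and include each gene in the mean.

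By place in the genome, HIST1 and HIST2 genes gave similar values. The median change in the shTP63 line was -1.94 for 42 HIST1 genes and -1.62 for 10 HIST2 genes, and that in the shSOX2 line was -0.51 and -0.22. The median day 0 gap was 1.52 for HIST1 and 1.29 for HIST2. The linear sums of HIST1 were 493.0 and 398.1 RPKM in induced shTP63 cells, against 1486.3 RPKM at day 0, and those of HIST2 58.2 and 53.9 RPKM, against 202.6 RPKM, which are ratios of 0.3 and 0.277. Of the HIST3 genes 2 were tested, HIST3H2A and HIST3H2BB, and HIST3H2BB was at 2.16 and 2.18 in induced shTP63 cells, against 3.92 at day 0. The HIST1 genes fall into 3 blocks on chromosome 6 parted by over 500000 bases, and the medians in the shTP63 line were -1.94, -1.38 and -2.17 for 25, 4 and 13 tested genes. The block of 4 holds HIST1H2BK.

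Histone genes often stand head to head with shared upstream sequence, and 12 such pairs with starts within 1000 bases were found, 11 of them an H2A with an H2B gene. Of the 11 pairs with both genes tested, 4 were over 1 unit apart in their change in the shTP63 line. HIST1H2BK and HIST1H2AH, with starts 331 bases apart, had changes of -0.25 and -2.14, and HIST3H2A and HIST3H2BB, 234 bases apart, 0.54 and -1.76. The other 2 paired a pseudogene with an H2A gene, HIST2H2BD with HIST2H2AA3 (0.53 and -1.55) and HIST2H2BC with HIST2H2AA4 (0.88 and -1.58). In the other 7 pairs both changes were below 0, as in HIST1H2AJ and HIST1H2BM (-2.63 and -2.54) and HIST1H2BJ and HIST1H2AG (-1.49 and -1.27). Among these, HIST1H2BC and HIST1H2AC had changes of -0.93 and -0.17, and the induced libraries of HIST1H2AC lay on either side of day 0. At day 0 HIST1H2BK and HIST1H2AH both stood higher in the shTP63 library, by gaps of 1.28 and 1.65.

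Grouped by the annotated 3' end, the 52 tested genes that are not pseudogenes in GENCODE gave similar medians. HIST2H2BC and HIST2H2BD were left out, though their longest models also run on past the stem-loop. Their changes in the shTP63 line were 0.88 and 0.53. The 8 tested genes whose longest model ends within 100 bases of the stem-loop had a median change of -1.82 in the shTP63 line, the 19 whose longest model runs on further -1.79, and the 25 whose models hold no stem-loop -2.11. In the shSOX2 line these medians were -0.23, -0.44 and -0.53, and for the day 0 gap 1.56, 1.48 and 1.50. The genes of the third version of the stem-loop included both HIST1H3G, with a change of -2.18 in the shTP63 line, and HIST1H2BD, with -1.02. A GENCODE length was found for 8882 (84.3%) of the genes tested. Among those outside the histone genes, 477 had a longest transcript of at most 1000 bases. Their medians were 0.00 in the shTP63 line, -0.02 in the shSOX2 line and 0.10 for the day 0 gap. The histone genes are not all within that length, since the longest models of HIST1H2BN and HIST1H2BE have 4137 and 2585 bases. The part of transcript length in the results was not tested.

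Genes that serve the same process were looked at from lists written from general knowledge. S phase genes, such as those of the MCM replicative helicase and of nucleotide synthesis, were lower in both lines, with medians of -1.25 in the shTP63 line and -0.72 in the shSOX2 line, and had no gap at day 0 to match that of the histones, with a median of 0.05. Of 25, 23 were below day 0 in both induced shTP63 libraries and 25 in both induced shSOX2 libraries, against 38.5% and 40.2% of all genes tested. In the shTP63 line 20 of them and in the shSOX2 line 8 were lower at an unadjusted p under 0.05, against 7.24% and 4.26% of all genes tested, shares that hold beside the like counts of the next lists, and 0 passed after adjustment in either line (limma). PCNA, the sliding clamp of DNA polymerase, was at 5.11 and 4.48 in induced shTP63 cells, against 6.49 at day 0, and at 4.92 and 4.52 in induced shSOX2 cells, against 5.79 at day 0. RRM2, a subunit of ribonucleotide reductase, was at 3.13 and 1.78 in induced shTP63 cells, against 4.43 at day 0, and at 2.41 and 3.02 in induced shSOX2 cells, against 4.64 at day 0.

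SLBP was at 2.96 and 2.79 in induced shTP63 cells, against 3.87 at day 0, and at 3.01 and 2.48 in induced shSOX2 cells, against 3.86 at day 0. It was lower in all 4 induced libraries and all but equal at day 0, with a gap of 0.01, and passed in neither line (log2 changes -1.0 and -1.12). NPAT was under the filter, at 0.42 and 0.46 in induced shTP63 cells, against 0.80 at day 0, and at 0.51 and 0.41 in induced shSOX2 cells, against 0.55 at day 0. The 19 tested genes of histone transcription and mRNA processing, among them the Sm proteins and cleavage factors of the U7 and CPSF machinery, had medians of -0.34 in the shTP63 line, -0.47 in the shSOX2 line and -0.14 for the day 0 gap. Of the 19, 3 were lower at an unadjusted p under 0.05 in each line, and 0 passed after adjustment (limma).

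The 17 histone chaperones, which hand histones to DNA, had medians of -0.57 in the shTP63 line, -0.39 in the shSOX2 line and 0.03 for the day 0 gap. CHAF1A, a subunit of the replication-coupled chaperone CAF-1, was at 3.46 and 3.05 in induced shTP63 cells, against 4.80 at day 0, and at 4.38 and 4.25 in induced shSOX2 cells, against 4.75 at day 0. ASF1B, which carries H3 and H4, was at 4.22 and 3.01 in induced shTP63 cells, against 4.76 at day 0, and at 3.18 and 3.12 in induced shSOX2 cells, against 4.78 at day 0. Of the 17, 5 and 2 were lower at an unadjusted p under 0.05 in the shTP63 and shSOX2 lines, and 0 passed after adjustment (limma).

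Replication-independent histone variants, whose mRNAs as a rule carry poly(A) tails though H2AFX is known to give both forms, had medians nearer 0 than their replication-dependent relatives. The 10 tested variants stood at medians of -0.40 in the shTP63 line, 0.05 in the shSOX2 line and 0.28 for the day 0 gap. In either line 0 of 10 were 2-fold apart in both libraries. Of all genes tested, 2.82% were 2-fold lower and 3.05% higher in the shTP63 line, and 0.987% and 2.48% in the shSOX2 line. At such shares 10 genes are too few for a count of 0 to stand apart. H2AFZ, which encodes H2A.Z, was at 6.80 and 6.93 in induced shTP63 cells, against 7.79 at day 0, and at 6.72 and 6.70 in induced shSOX2 cells, against 7.23 at day 0. H3F3B, which encodes H3.3, was at 5.19 and 5.45 in induced shTP63 cells, against 5.93 at day 0, and at 4.59 and 4.94 in induced shSOX2 cells, against 5.50 at day 0. H3F3A, which encodes the same protein, was at 4.16 and 3.76 in induced shTP63 cells, against 3.51 at day 0. Of the 10, 2 and 0 were lower at an unadjusted p under 0.05 in the shTP63 and shSOX2 lines, and 0 passed after adjustment (limma).

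**Figure D5:**
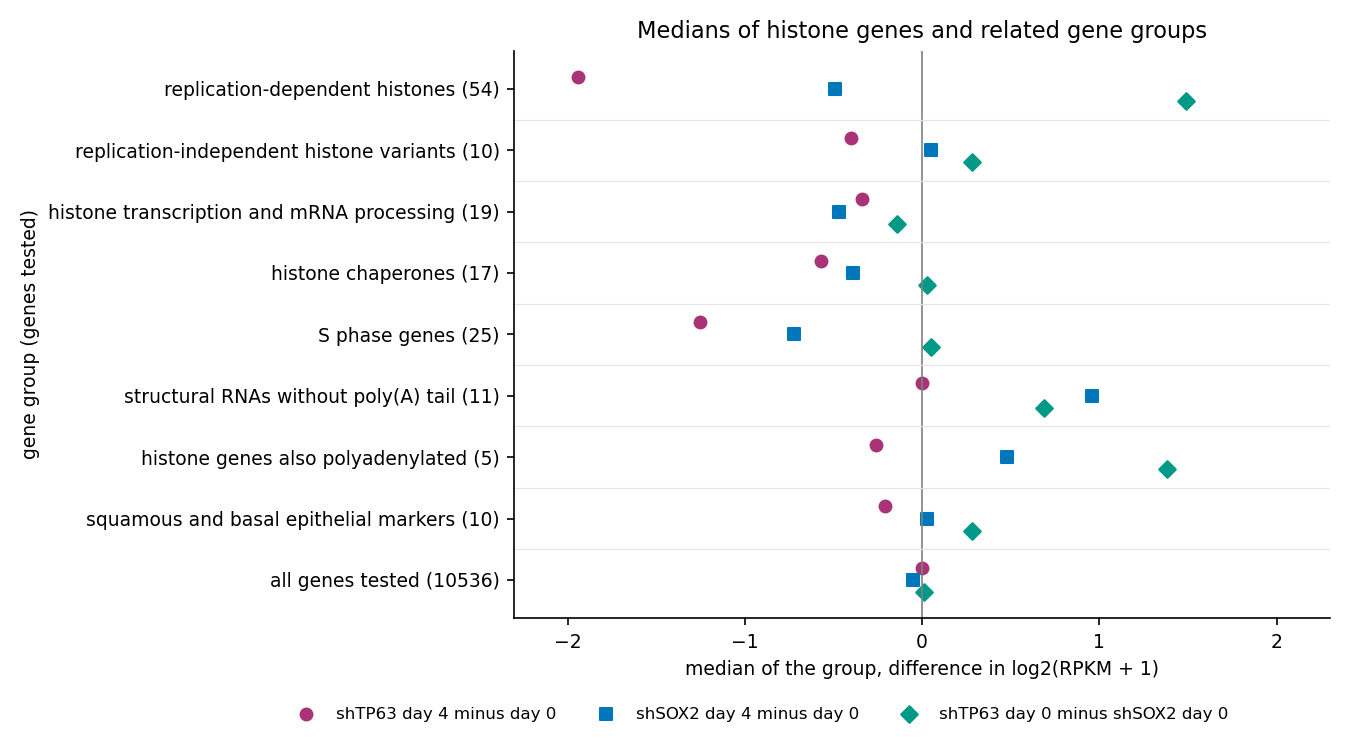
Median difference in log2(RPKM + 1) of the tested genes of each group, for shTP63 day 4 minus day 0 (circles), shSOX2 day 4 minus day 0 (squares) and shTP63 day 0 minus shSOX2 day 0 (diamonds), with the number of genes in parentheses. Replication-dependent histones have a day 0 gap of 1.49, while S phase genes, chaperones and processing genes lie between -0.14 and 0.05.

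Structural RNAs without a poly(A) tail lay on both sides of their day 0 levels in the shTP63 line. The 11 tested RNAs of 16 found in the table had medians of 0.00 in the shTP63 line and 0.96 in the shSOX2 line, where all 11 were above day 0 in both induced libraries, as 33.3% of all genes tested were. RN7SK was at the ceiling of 13.36 in all 3 shTP63 libraries, so no change could be seen there. RN7SL1, the RNA of the signal recognition particle, was at 11.16 and 13.04 in induced shTP63 cells, against 13.04 at day 0, and at 11.43 and 11.01 in induced shSOX2 cells, against 10.52 at day 0. TERC, the RNA of telomerase, was at 2.97 and 3.80 in induced shTP63 cells, against 4.55 at day 0, and at 4.50 and 5.14 in induced shSOX2 cells, against 3.86 at day 0. RNU1-1 was at 5.24 and 4.18 in induced shTP63 cells, against 3.08 at day 0. Of these RNAs 2 were lower and 1 higher at an unadjusted limma p under 0.05 in the shTP63 line, against 7.24% and 7.33% of all genes. In the shSOX2 line 4 were higher, where 6.12% of all genes were, and 0 passed after adjustment in either line (limma).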

How the data were processed

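The 6 libraries were made from oligo(dT)-selected RNA, fragmented, reverse transcribed with random primers and sequenced on an Illumina HiSeq instrument, per the labels' protocols. The labels state no strand-specific step, so overlapping genes could share reads. Values are named RPKM in the deposited table, but they fit log2 of RPKM + 1 after quantile normalization by the authors, which is read from the values, and base 2 was assumed. Per the submitters' processing notes, hg19 was used. The sources used here name no aligner, counter or annotation. RPKM had been assumed in the design, so the deposited log2 values were tested as they stand. Linear RPKM was computed back from them.

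The filter kept 10536 genes whose linear RPKM averaged 1 or more. limma 3.58.1 in R 4.3.3 was fitted to all 6 libraries with 4 group means, a mean-variance trend, 2 residual and about 5.5 prior degrees of freedom, after being tested on simulated data. P-values are two-sided and adjusted after Benjamini and Hochberg over all genes tested, and a gene passed when that value was under 0.05. For lone day 0 libraries the variance of the day 4 pairs was assumed. The title numbers were taken as replicates and could number hairpins. Stem-loops came from GENCODE release 29 transcripts, promoters from RefSeq, matched by symbol or synonym for all 69 genes. Sequences are on GRCh38 and served no test. Alternatives covered the filter, the pseudocount, the scaling, the trend, the replicate block, the control library and each left-out library.

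The histone genes, gene lists and tests were chosen with earlier results of these data known. Named with all values were SLBP and NPAT, per type the 3 highest genes, per comparison the 5 smallest unadjusted p and, at day 0, the 5 largest gaps, any gene at 0 in 1 day 0 library and over a linear RPKM of 1 in the other, and 5 genes known also to be polyadenylated. Others were named after their values were seen, namely HIST1H2AG, HIST1H2AH, HIST1H2BJ, HIST1H2BM, HIST3H2A, HIST3H2BB, HIST3H2BA, HIST1H3E and HIST2H2AA3, those under the filter, and the genes of the other lists.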

Additional observations from a re-analysis of the deposited data

How the results depend on the processing

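Medians of the 54 tested histone genes kept their sign in every alternative except that of induced shTP63 minus induced shSOX2, which ranged over -0.21 to 0.45. The day 0 gap stayed between 1.20 and 1.55 in 13 alternatives. The induced shTP63 median was -1.45 with a pseudocount of 5. With both day 0 libraries as control the medians were -1.10 for shTP63 and -1.27 for shSOX2, with 22 genes 2-fold apart in both libraries for each line, all lower but HIST2H2BC in shSOX2, and 1 call for shTP63. In settings chosen after seeing the data, with the other line's day 0 library as control, the medians were -0.39 for shTP63 and -2.0 for shSOX2 with 2 and 45 genes 2-fold apart, and the median over both lines without the shTP63 day 0 library was -0.37. With a pseudocount of 0.1, 2 genes passed over both lines and 2 were 2-fold apart in the shSOX2 line. Leaving out each day 4 library in turn, the genes called ranged over 0 to 12 for shTP63 and 0 to 19 over both lines, and the genes 2-fold apart in shSOX2 over 0 to 23, where a lone library was assumed to vary like the other pairs. With the replicate number as a replicate block, 0 histone genes passed in any comparison. Of all genes, 0.171% then passed for induced shTP63 against induced shSOX2 and 0% in every other comparison. The histone medians were -1.86 for shTP63 and -0.40 for shSOX2. The main fit did not use the number as a pairing. At day 4, replicate 1 minus replicate 2 had a correlation of -0.0738 between the lines. That value cannot show whether same-numbered day 0 and day 4 libraries of a line share a culture or a hairpin. Such a pairing within a line was not tested. Without the 2 pseudogenes, chosen after seeing the data, or the testis genes, no median or count of calls moved. Depth is unknown, and the lowest genes sit where the added 1 compresses differences.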

Other observations

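The 5 genes outside the histone lists whose levels were most like the mean of the 54 tested histone genes over the 6 libraries were NEK6, a kinase of mitosis (Pearson r = 0.993), CCDC91 (0.993), POLR2I, a subunit of RNA polymerase II (0.987), RP11-617F23.1 (0.978) and DTD1 (0.961). These are descriptions over 6 libraries picked from 10536 genes, with no test. POLR2I was at 4.55 and 4.16 in induced shTP63 cells, against 5.29 at day 0, and at 4.12 and 4.50 in induced shSOX2 cells, against 4.62 at day 0. NEK6 was at 1.14 and 0.87 in induced shTP63 cells, against 2.00 at day 0, and at 0.73 and 1.18 in induced shSOX2 cells, against 1.12 at day 0. In both genes the shTP63 day 0 library was the highest of the 6, as it was for 49 of the 54 histone genes.

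Among the histone genes under the filter, HIST1H4F was at 0.80 in the shTP63 day 0 library and at 0.09 in the induced shSOX2 replicate 2, and at 0 in the other 4 libraries. HIST1H4I, an H4 gene with the fourth version of the stem-loop, was at 0.29 and 0.15 in induced shTP63 cells, against 0 at day 0, and at 0.52 and 0.42 in induced shSOX2 cells, against 0.17 at day 0.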
